A study of Mus musculus with 16 samples.

Results

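The narrow bivalent sites of early anagen hair follicle stem cells (EA-HFSCs) are the EA-HFSC H3K4me3 peaks under 5000 bp wide that share at least 1 bp with an EA-HFSC H3K27me3 peak under 10000 bp wide. There were 1704 such sites among the 21482 H3K4me3 peaks of EA-HFSCs, of which 20038 were under the width limit. The 12 peak lists of the series held 219698 peaks in all. The sites were selected on the positions and widths of the EA-HFSC peaks of both marks, so these values describe the sites and are not findings about them. The peaks of the other 3 populations took no part in the selection.

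H3K4me3 marks the starts of genes that are transcribed or ready to be transcribed, and it is laid down mainly at CpG-rich promoters. H3K27me3 is written by Polycomb repressive complex and marks genes held silent, many of them regulators of development. Promoters that carry both marks are called bivalent, and in stem cells such genes are often regarded as silent but poised. In a sort of many cells, peaks of both marks at one locus can come from the same nucleosomes, from the 2 alleles of a cell or from different cells, and the lists do not tell these apart.

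Chromatin immunoprecipitation followed by sequencing (ChIP-seq) was carried out on mono-nucleosomes released with micrococcal nuclease from wild-type male mice of a CD1 x FVB cross. EA-HFSCs were sorted as CD34+ / α6-integrin+ cells at PD22 to PD25 (PD, postnatal day), when the stem cells of the bulge enter growth, and LC-HFSCs by the same markers at PD38 to PD44, in late catagen, when they are quiescent. The cells sorted as CD34- / α6-integrin+ at the same ages, labelled nEA-HFSCs and nLC-HFSCs, are called non-EA-HFSCs and non-LC-HFSCs here. Each preparation pooled 15 to 20 mice, and the antibodies were from ActiveMotif (H3K4me3), Millipore (H3K27me3) and Millipore and Abcam (H3K9me3), with an IgG library of each population as the control. The CD34- fraction is a mixed population of other α6-integrin+ skin epithelial cells, and no allele, transgene or drug distinguishes any group. Replicates had been pooled before the peaks were called, so that each population and mark has 1 list, populations cannot be compared over replicates, and no p-value is given. Shares are given with 95% Wilson intervals, which cover counting error only, and neighbouring sites are not independent. The files give no read numbers, so no value carries its own depth. Per the study's methods, the LC-HFSC libraries had more mapped reads than those of EA-HFSCs, and detection was near saturation for H3K4me3 but not for H3K27me3 and H3K9me3.

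The lists differed in length. H3K4me3 lists held 14718 (LC-HFSCs) to 24498 peaks (non-EA-HFSCs), whereas H3K27me3 lists held 1909 peaks in LC-HFSCs, 15273 in non-LC-HFSCs, 17488 in non-EA-HFSCs and 25534 in EA-HFSCs. The shares were therefore also computed with the lists cut to equal lengths, and those values stand beside the main ones below. The score of a peak is 10 times the negative log10 of its p-value, starts at 50 for H3K4me3 and at 40 for H3K27me3 and H3K9me3, and ranks peaks within a list. Scores of different lists are set side by side below but are not compared in size.

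The labelled cell type was checked at the starts of 20 genes of HFSCs and basal keratinocytes. In EA-HFSCs, 15 had H3K4me3 alone, among them Krt5, Krt14, Krt15, Sox9, Lgr5 and Cd34, and 1 (Gata3) had both marks. The other 4 (Itga6, Trp63, Runx1 and Nfib) had neither at the annotated start, and 0 of the 20 had a narrow bivalent site. A site was also rare over all protein-coding genes (5.48%), so that 0 of 20 does not set these genes apart. Cd34, which encodes a sorting marker, had H3K4me3 alone in both HFSC populations and H3K27me3 alone in both CD34- populations. Itga6, which encodes the other sorting marker, had neither mark at its annotated start in any population, and neither did Trp63. Among markers of other skin cell types, Lor of the cornified layer, Kit of melanocytes, Kdr of endothelium, H2-Ab1 of antigen-presenting cells and Krt8 of Merkel cells had a site. The remaining markers examined had none. Ptprc, Pecam1, Tek and Tyr, which define leukocytes, endothelium and melanocytes, had no H3K4me3 peak at the start in any population.

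The sequence at most of the sites was CpG-rich, and 5 windows of 200 bases are shown because the rest of the report follows the marks at these sites. They are the best-ranked site near a gene start of each state found in LC-HFSCs, and a narrow H3K4me3 peak without H3K27me3 for contrast. Each was read from mm9, plus strand, around the middle of the stretch shared by the EA-HFSC peaks of both marks, or of the H3K4me3 peak for the contrast, and each CpG is in capitals. Ankrd33b (chr15:31296760-31296959) had both marks in LC-HFSCs, Slc38a1 (chr15:96472538-96472737) H3K4me3 alone, E030030I06Rik (chr10:21869708-21869907) H3K27me3 alone and Sgcb (chr5:74039396-74039595) neither. Nucks1 (chr1:133807798-133807997) had the highest-scoring narrow H3K4me3 peak at a start with no H3K27me3 peak in any population.
Ankrd33b: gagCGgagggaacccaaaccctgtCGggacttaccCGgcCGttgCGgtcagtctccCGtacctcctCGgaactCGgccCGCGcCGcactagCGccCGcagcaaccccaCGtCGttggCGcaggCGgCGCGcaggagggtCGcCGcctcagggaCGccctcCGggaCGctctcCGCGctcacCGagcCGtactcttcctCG
Slc38a1: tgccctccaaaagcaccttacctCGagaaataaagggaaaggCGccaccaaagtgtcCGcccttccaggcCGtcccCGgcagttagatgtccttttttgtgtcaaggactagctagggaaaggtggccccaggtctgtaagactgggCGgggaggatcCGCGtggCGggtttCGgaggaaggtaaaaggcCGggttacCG
E030030I06Rik: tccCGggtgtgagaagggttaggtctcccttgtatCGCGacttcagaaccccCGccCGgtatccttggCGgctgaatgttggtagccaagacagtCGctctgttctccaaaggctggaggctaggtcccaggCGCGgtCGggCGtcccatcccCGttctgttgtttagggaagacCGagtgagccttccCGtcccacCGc
Sgcb: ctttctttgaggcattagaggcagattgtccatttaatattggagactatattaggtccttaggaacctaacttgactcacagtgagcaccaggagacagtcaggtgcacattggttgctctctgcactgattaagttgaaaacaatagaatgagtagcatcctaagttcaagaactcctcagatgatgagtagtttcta
Nucks1: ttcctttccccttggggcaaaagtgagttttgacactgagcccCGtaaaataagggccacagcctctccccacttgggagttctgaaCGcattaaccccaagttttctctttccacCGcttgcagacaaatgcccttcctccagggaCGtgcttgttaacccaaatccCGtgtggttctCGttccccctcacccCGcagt
The Ankrd33b window held 29 CpGs, that of E030030I06Rik 15, that of Slc38a1 12, that of Nucks1 7 and that of Sgcb 0. The Sgcb window lay toward the edge of its H3K4me3 peak, since the peaks of both marks overlapped there at an edge. In the 500 bp at the middle of the same H3K4me3 peak there were 52 CpGs.

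In EA-HFSCs, H3K4me3 formed a short block within or beside a longer H3K27me3 block. The median width was 1952 bp for H3K4me3 and 3600 bp for H3K27me3. The H3K4me3 peak lay wholly inside the H3K27me3 peak at 707 sites (41.5%), held an H3K27me3 peak at 104 (6.10%) and overlapped one at an edge at 893 (52.4%). A median of 1456 bp, or 94.2% of the H3K4me3 peak, was under H3K27me3, and 29 sites shared less than 100 bp. The sites used 1891 H3K27me3 peaks, 50 of which held more than 1 site. The sites were spread over the genome, with a median distance of 266009 bp to the next one, and 347 (20.4%) had another site within 50000 bp.

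The width limits cut through a continuous range. The widest sites were 4981 bp at Plag1 and Chchd7, 4958 bp at Fhod1 and Slc9a5 and 4843 bp at Fzd10, and the narrowest H3K4me3 peaks with H3K27me3 past the limit were 5053 bp at Gm10419 and 5074 bp at Mettl9. The widest H3K27me3 peaks at a site were 9990 bp at Nptx2 and 9975 bp at Fgf3. Just past that limit, peaks of 10001 bp at Slc26a4 and 10048 bp at Foxp2 did not make a site. Another 16 sites also touched an H3K27me3 peak of 10000 bp or more, and at 251 sites (14.7%) H3K27me3 would reach 10000 bp once peaks under 1000 bp apart were joined.

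The sites lay near gene starts more often than H3K4me3 peaks in general. The start of a protein-coding gene was within 3000 bp at 1181 sites, 69.3% (95% interval 67.1 to 71.5), against 57.7% of all EA-HFSC H3K4me3 peaks. By their middle, 36.0% of the 1701 placed sites were in a promoter (from 1000 bp before a transcript start to 100 bp past it), 8.41% in a 5′ untranslated region, 1.24% in a 3′ untranslated region, 13.4% in another exon, 22.8% in an intron and 18.2% between genes. Introns and intergenic sequence held 40.3% and 23.3% of all EA-HFSC H3K4me3 peaks. At the 1100 sites with a single gene start, the middle of the H3K4me3 peak lay downstream of the start at 75.8% and that of the H3K27me3 peak at 68.9%.

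Sites were richer in CpG than narrow H3K4me3 peaks without H3K27me3, at gene starts and away from them. The median GC content of the central 500 bp was 63.6% and the median ratio of observed to expected CpG 0.719, against 54.0% and 0.506 at the 17910 narrow H3K4me3 peaks without H3K27me3. Counting a window as CpG-rich from a GC content of 50% and a ratio of 0.6, 68.3% of the sites (66.0 to 70.4) and 35.7% of those other peaks (35.0 to 36.4) were CpG-rich. Near gene starts the shares were 74.4% and 55.1%. Away from gene starts they were 54.2% (49.9 to 58.5) and 12.8% (12.1 to 13.6), so that the distance between the groups was wider there.

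In LC-HFSCs, most of the sites no longer had a listed peak of both marks. H3K4me3 was present at 768 sites, 45.1% (42.7 to 47.4), which is below the 66.4% of all EA-HFSC H3K4me3 peaks. H3K27me3 was present at 394 sites, 23.1% (21.2 to 25.2), against 3.00% of all EA-HFSC H3K4me3 peaks and 6.65% of all EA-HFSC H3K27me3 peaks. Both were present at 171 sites, 10.04% (8.70 to 11.6), against 1.18% of all EA-HFSC H3K4me3 peaks. Of these 21482 peaks, only 2192 (10.2%) had H3K27me3 in EA-HFSCs, so that this background is low from the outset. Both marks were found in LC-HFSCs at 13.2% (10.3 to 16.8) of the 424 narrow H3K4me3 peaks on wide H3K27me3 only. They were found at 25.0% (16.0 to 36.8) of the 64 broad H3K4me3 peaks with H3K27me3. A share above the background was thus not particular to the sites. H3K4me3 alone was found at 597 sites (35.0%), H3K27me3 alone at 223 (13.1%) and neither at 713 (41.8%). The LC-HFSC peaks of both marks overlapped each other at 162 of the 171 sites. When a followed peak had to cover at least 50% of the site, the share with both marks was 5.40%, and once peaks scoring under 100 were dropped from each list it was 1.49% and that of H3K4me3 28.2%.

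**Figure D1:**
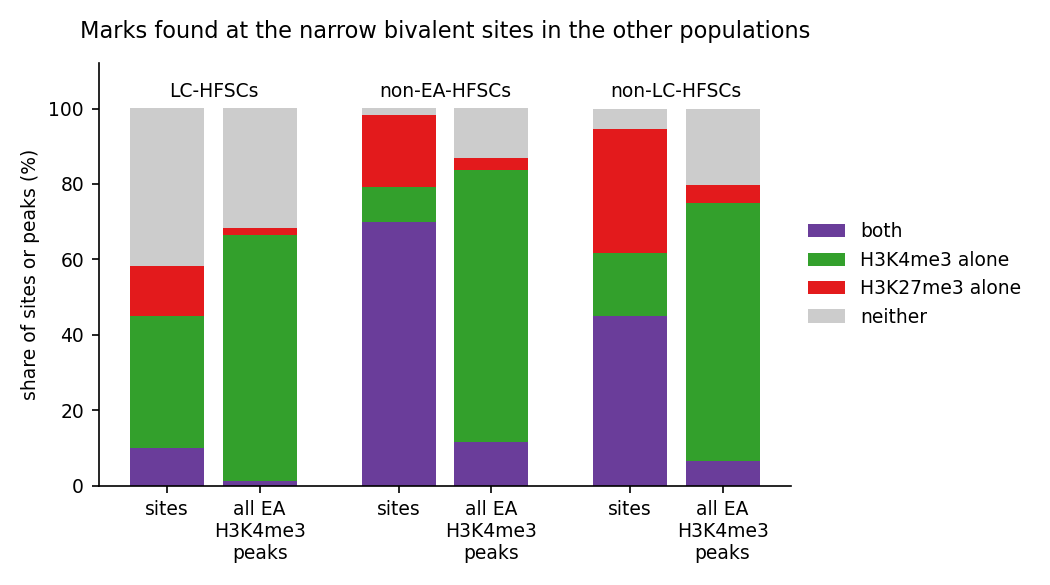
Marks found in LC-HFSCs and the CD34- populations at the 1704 sites (left bar of each pair) and at all 21482 EA-HFSC H3K4me3 peaks (right bar), as stacked shares in percent. Both marks were found at 10.04% of the sites in LC-HFSCs, 69.8% in non-EA-HFSCs and 44.9% in non-LC-HFSCs.

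The CD34- populations held both marks at more of the sites than LC-HFSCs. In non-EA-HFSCs, of the same age as EA-HFSCs, H3K4me3 was present at 1351 sites (79.3%; 83.6% of all EA-HFSC H3K4me3 peaks). H3K27me3 was present at 1511 (88.7%), against 15.1% of all EA-HFSC H3K4me3 peaks and 40.8% of all EA-HFSC H3K27me3 peaks. Both were present at 1189 sites, 69.8% (67.6 to 71.9), against 11.7% of all EA-HFSC H3K4me3 peaks. They were also present at 69.3% of the 424 narrow H3K4me3 peaks on wide H3K27me3 only and 90.6% of the 64 broad ones with H3K27me3. In non-LC-HFSCs, H3K4me3 was present at 1053 sites (61.8%; 75.0% of all EA-HFSC H3K4me3 peaks). H3K27me3 was present at 1324 (77.7%), against 11.3% of all EA-HFSC H3K4me3 peaks and 29.7% of all EA-HFSC H3K27me3 peaks. Both were present at 765 sites, 44.9% (42.6 to 47.3), against 6.64% of all EA-HFSC H3K4me3 peaks. The 424 narrow peaks on wide H3K27me3 only and the 64 broad peaks with H3K27me3 had both at 46.9% and 82.8%. Neither mark was found at 31 sites (1.82%) in non-EA-HFSCs and at 92 (5.40%) in non-LC-HFSCs, against 713 in LC-HFSCs.

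The 3 populations kept this order when each H3K27me3 list was cut to its 1909 top-scoring peaks and each H3K4me3 list to its 14718 top-scoring peaks, the lengths of the LC-HFSC lists, but the distance between them shrank. The share of sites with both marks was then 19.7% in non-EA-HFSCs and 12.9% in non-LC-HFSCs, beside 10.04% in LC-HFSCs. With a followed peak covering at least 50% of the site, it was 22.7% in non-LC-HFSCs.

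Followed over all 3 populations, the commonest course was H3K4me3 alone in LC-HFSCs with both marks in both CD34- populations, at 347 sites (20.4%). Next came neither mark in LC-HFSCs with both in the CD34- populations, at 186 sites (10.9%), and neither in LC-HFSCs with H3K27me3 alone in the other populations, at 164 (9.62%). Both marks were found in all 4 populations at 131 sites, 7.69% (6.52 to 9.05). At 602 sites (35.3%) both marks were present in the CD34- populations and not in LC-HFSCs. Both marks were found in no other population at 472 sites (27.7%), of which 23 had no peak of either mark elsewhere. Of the 713 sites with neither mark in LC-HFSCs, 527 (73.9%) had H3K27me3 in non-LC-HFSCs of the same age. That is slightly below the 77.7% of all sites with H3K27me3 in non-LC-HFSCs.

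**Figure D2:**
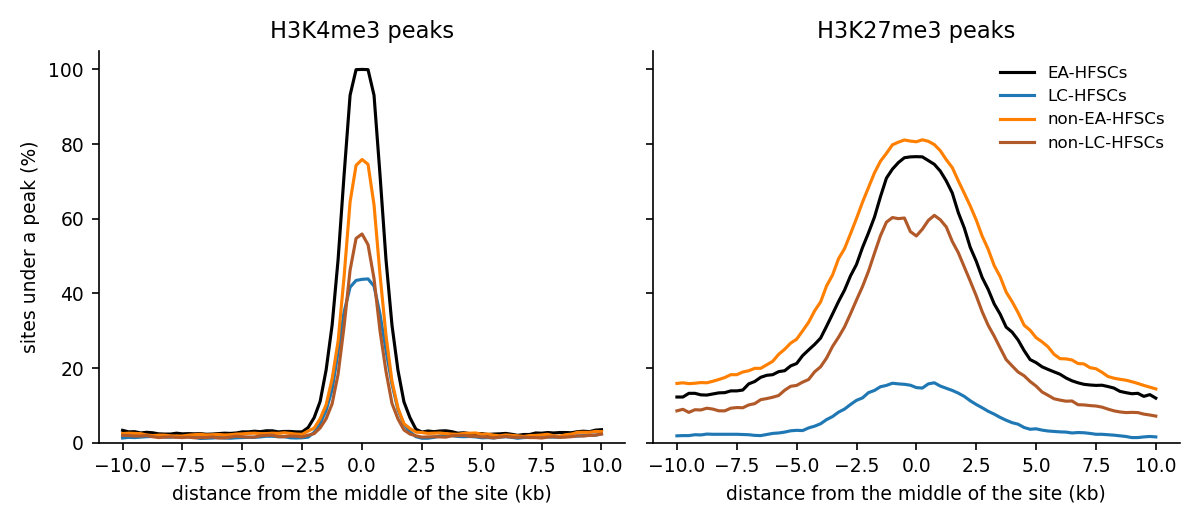
Share of the 1704 sites under a peak of H3K4me3 (left) or H3K27me3 (right), in percent, at distances of up to 10 kb from the middle of the site, with 1 line per population. At the middle of the site, H3K4me3 covered 100% in EA-HFSCs by the selection and 43.8% in LC-HFSCs, and H3K27me3 covered 76.6% in EA-HFSCs, 80.6% in non-EA-HFSCs, 55.4% in non-LC-HFSCs and 14.8% in LC-HFSCs.

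Where H3K27me3 was present, its extent differed between populations. Over the sites with a peak, the median H3K27me3 width was 3290 bp in LC-HFSCs, 5996 bp in non-EA-HFSCs and 3208 bp in non-LC-HFSCs. The H3K27me3 peak of non-EA-HFSCs was wider than that of EA-HFSCs at 1255 of 1511 sites (83.1%), and at 268 sites (17.7%) it was 10000 bp or more. This widening was not particular to the sites. Peak by peak, the median ratio of the non-EA-HFSC to the EA-HFSC width was 1.64 for the H3K27me3 peaks at the sites and 1.97 for the other H3K27me3 peaks under 10000 bp. In LC-HFSCs the H3K27me3 ratio was 0.628 at the sites and 0.749 elsewhere, and in non-LC-HFSCs 0.858 and 0.901. H3K4me3 peaks at the sites were narrower than in EA-HFSCs in each population, with median ratios of 0.865 in LC-HFSCs, 0.775 in non-EA-HFSCs and 0.669 in non-LC-HFSCs, against 0.853, 0.862 and 0.761 at the other narrow H3K4me3 peaks. These ratios start from peaks selected to be narrow in EA-HFSCs.

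The state in LC-HFSCs moved with the scores in EA-HFSCs. Sites with both marks in LC-HFSCs had median EA-HFSC scores of 650.6 for H3K4me3 and 656.4 for H3K27me3. Those with H3K4me3 alone had 673.1 and 157.3, those with H3K27me3 alone 181.2 and 772.7, and those with neither 147.6 and 234.1. Each mark was thus found again in LC-HFSCs mainly at sites where that mark had scored high in EA-HFSCs. Of the 413 sites at or above the median of both scores, 27.6% (23.5 to 32.1) had both marks in LC-HFSCs, against 0.969% (0.377 to 2.46) of the 413 sites below both medians. Of the 439 sites high in H3K4me3 and low in H3K27me3, 75.6% had H3K4me3 alone. Of the 439 with the opposite scores, 32.1% had H3K27me3 alone and 56.3% had neither.

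**Figure D3:**
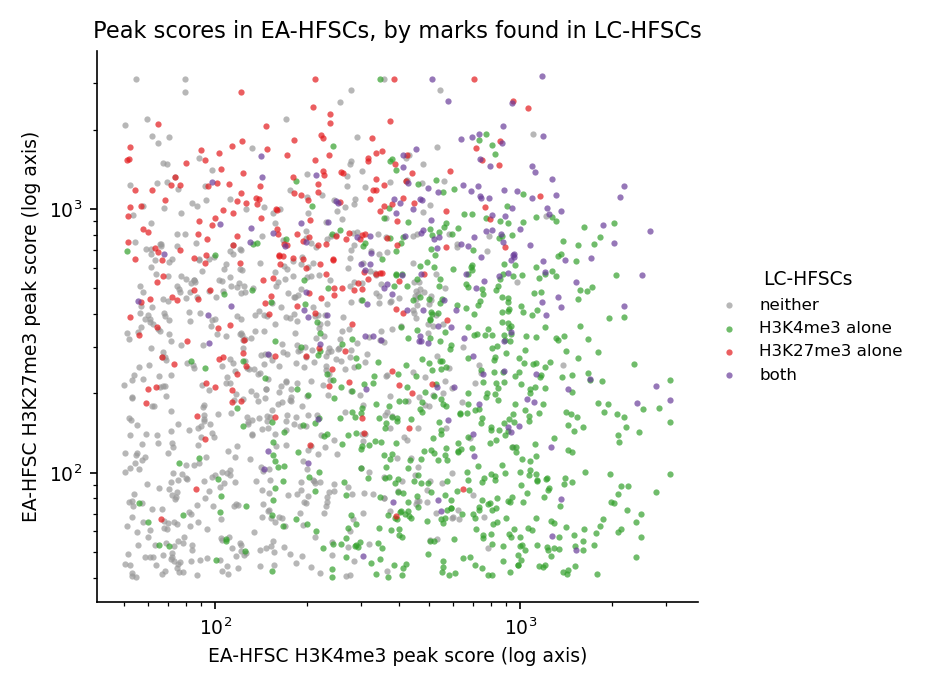
EA-HFSC H3K4me3 score (x, log axis) against the best EA-HFSC H3K27me3 score (y, log axis) of the 1704 sites, 1 point per site, coloured by the marks found in LC-HFSCs. Points with H3K4me3 alone in LC-HFSCs lie to the lower right, with median scores of 673.1 and 157.3, and those with H3K27me3 alone to the upper left, with 181.2 and 772.7.

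H3K4me3 was found in LC-HFSCs at fewer of the sites than of other narrow H3K4me3 peaks of like score. For EA-HFSC scores from 150 to under 400, it was found at 31.7% of 530 sites (27.9 to 35.8) and at 54.2% of 2696 other peaks (52.3 to 56.0). For scores from 400 to under 1000 it was 76.1% (72.0 to 79.7) and 94.0% (93.2 to 94.7). At 1000 or more the shares came together, at 97.6% (94.4 to 99.0) and 99.6% (99.4 to 99.7). In non-EA-HFSCs the difference was smaller, with 82.3% (78.8 to 85.3) of sites and 86.6% (85.2 to 87.8) of other peaks scoring from 150 to under 400. Within the sites, H3K4me3 in LC-HFSCs was found about as often with H3K27me3 there (43.4% of 394; 38.6 to 48.3) as without it (45.6% of 1310; 42.9 to 48.3). From the side of H3K27me3, EA-HFSC peaks scoring 300 or more were found again in LC-HFSCs for 42.9% of 800 peaks at the sites (39.5 to 46.3) and for 29.6% of 1533 other peaks under 10000 bp (27.3 to 31.9).

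H3K9me3, a mark of heterochromatin, was also called at many of the sites in EA-HFSCs. An EA-HFSC H3K9me3 peak overlapped 1101 sites, 64.6% (62.3 to 66.9), against 42.7% of all EA-HFSC H3K4me3 peaks. The share was higher still at the 424 narrow H3K4me3 peaks on wide H3K27me3 only (95.5%) and the 64 broad ones with H3K27me3 (89.1%). It also differed by position. Near gene starts it was 68.5% at the sites and 58.8% at narrow H3K4me3 peaks without H3K27me3, and away from starts 55.8% and 10.8%. In the other populations such peaks were few, at 5 sites in LC-HFSCs (0.293%; background 0.0605%), 30 in non-EA-HFSCs (1.76%; background 0.735%) and 129 in non-LC-HFSCs (7.57%; background 8.77%). Where H3K4me3 scored from 50 to under 80, H3K9me3 was found at 49.3% of the sites (42.7 to 56.0) and at 4.51% of other narrow H3K4me3 peaks (3.81 to 5.32). Where H3K4me3 scored 1000 or more, the shares were 83.9% (78.3 to 88.3) and 77.4% (76.4 to 78.5). Among the sites, H3K9me3 moved with H3K27me3, from 34.1% of sites with an H3K27me3 score of 40 to under 60 to 83.5% of those with 300 or more. The H3K9me3 peaks on the sites had a median width of 1142 bp and a median score of 79.5. The EA-HFSC H3K9me3 list was the longest of all, with 42277 peaks, and the part of its library in this overlap was not tested.

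**Figure D4:**
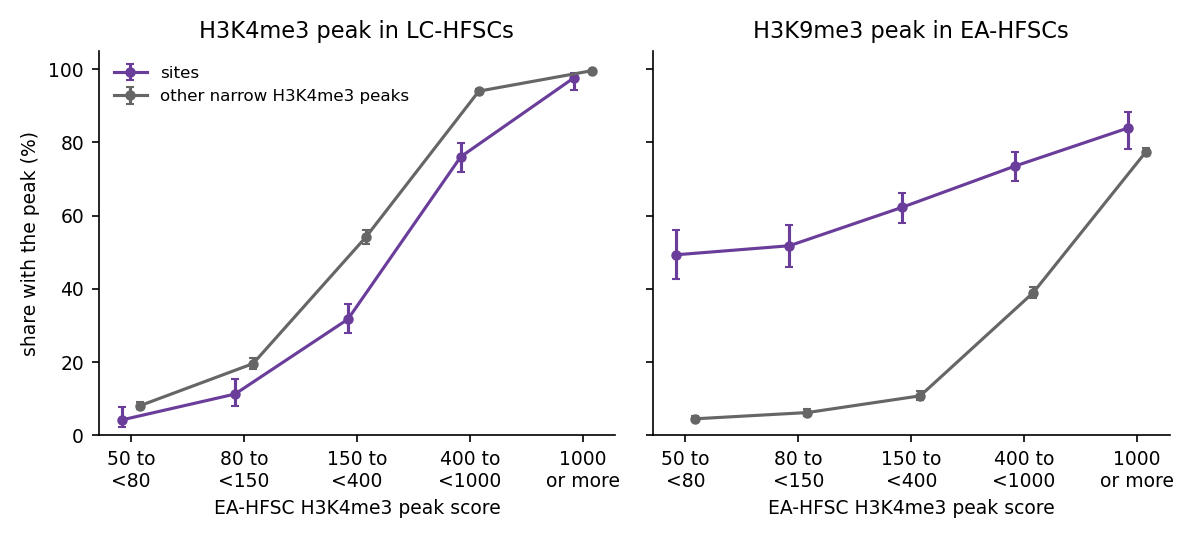
Share with an H3K4me3 peak in LC-HFSCs (left) and with an H3K9me3 peak in EA-HFSCs (right), in percent, by EA-HFSC H3K4me3 score, for the sites and for the other narrow H3K4me3 peaks, with bars for 95% Wilson intervals. At scores of 400 to under 1000, H3K4me3 was found in LC-HFSCs at 76.1% of the sites and 94.0% of the other peaks.

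The best-ranked sites near a gene start with both marks in LC-HFSCs were those of Ankrd33b, Pcdh10, Gm13334, Unc5c and Dll4. Pcdh10, which encodes a protocadherin of cell adhesion, had its site at chr3:45179624-45183365, over the promoter. Its H3K4me3 scores were 1182 in EA-HFSCs, 392.6 in LC-HFSCs, 812.5 in non-EA-HFSCs and 424.8 in non-LC-HFSCs. Its H3K27me3 scores were 1890, 203.1, 1992 and 1114 in the same order, so that all 4 populations carried both marks. Dll4, a ligand of Notch receptors, had its site at chr2:119150061-119154160, over the start of the gene. Its H3K4me3 scores were 1115, 156.2, 1235 and 657.3, and its H3K27me3 scores 1379, 95.8, 570.8 and 844.8. Its H3K27me3 peak measured 7634 bp in EA-HFSCs, 6893 bp in LC-HFSCs, 14284 bp in non-EA-HFSCs and 10056 bp in non-LC-HFSCs, and was thus narrow in both HFSC populations and wide in both CD34- populations. Unc5c, a netrin receptor of axon guidance, had scores of 1311 for H3K4me3 and 1130 for H3K27me3 in EA-HFSCs and 398.2 and 68.8 in LC-HFSCs. Both marks were present in non-EA-HFSCs (189.3 and 375.2), but in non-LC-HFSCs there was H3K27me3 alone (136.4). Ankrd33b, Gm13334 and Pcdh17, a protocadherin, also had both marks in all 4 populations, with LC-HFSC scores of 219.2 and 57.3, of 122.5 and 252.2, and of 240.3 and 170.1 for H3K4me3 and H3K27me3.

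H3K4me3 without H3K27me3 in LC-HFSCs was led by Slc38a1, Hs3st3a1, Gm9925, Plxnc1 and Jam2. Slc38a1, a glutamine transporter, had its site at chr15:96471072-96474204, over the promoter. Its scores in EA-HFSCs were 1017 for H3K4me3 and 1141 for H3K27me3, and in LC-HFSCs H3K4me3 scored 118.5 with no H3K27me3 peak. In non-EA-HFSCs the scores were 241.9 and 1143, and in non-LC-HFSCs 99.1 and 825.2, so that LC-HFSCs were the only population without the H3K27me3 peak. Plxnc1, a semaphorin receptor, and Jam2, a junctional adhesion molecule, showed this course as well, with LC-HFSC H3K4me3 scores of 54.8 and 56.4, near the lower limit of the list. Hs3st3a1, a heparan sulfate sulfotransferase, kept an H3K4me3 peak of 2466 bp in LC-HFSCs, beside 2410 bp in EA-HFSCs.

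H3K27me3 without H3K4me3 in LC-HFSCs was led by E030030I06Rik, Sobp, Efhd1, Odz2 and Lrrtm1. Sobp had its site at chr10:42891693-42895794, over a promoter and also within 3000 bp of the start of 9030612E09Rik. H3K27me3 there scored 2406 in EA-HFSCs, 103.5 in LC-HFSCs, 2371 in non-EA-HFSCs and 1631 in non-LC-HFSCs. H3K4me3 scored 1060 in EA-HFSCs, had no peak in LC-HFSCs, and scored 464.4 in non-EA-HFSCs and 149.9 in non-LC-HFSCs. Of these 5 sites, Lrrtm1, which encodes a synaptic adhesion protein, was the one with H3K27me3 alone in all 3 other populations, with scores of 42.0 in LC-HFSCs, 626.1 in non-EA-HFSCs and 382.3 in non-LC-HFSCs. The other 4, Odz2 (teneurin 2) among them, had both marks in both CD34- populations.

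Neither mark was found in LC-HFSCs at the sites of Sgcb, Galntl1, Crhr1, Colec12 and Gm1337, the best-ranked of this kind. Sgcb, a sarcoglycan, had its site at chr5:74037498-74040165, over an intron next to the start and also within 3000 bp of the start of Spata18. Its scores were 1103 for H3K4me3 and 1933 for H3K27me3 in EA-HFSCs, 801.2 and 1620 in non-EA-HFSCs and 543.7 and 1093 in non-LC-HFSCs. LC-HFSCs thus lacked listed peaks at a locus that was strongly called for both marks in the 3 other populations. Galntl1, a GalNAc transferase, and Crhr1, a receptor of corticotropin-releasing hormone, had H3K27me3 peaks of 12272 bp and 14238 bp in non-EA-HFSCs, against 7802 bp and 9371 bp in EA-HFSCs. Crhr1 had H3K27me3 alone in non-LC-HFSCs, and the other 4 had both marks there.

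At the level of genes, 1225 of 22367 protein-coding genes had a site within 3000 bp of the start, 5.48% of all genes and 9.07% of the 13508 genes with an EA-HFSC H3K4me3 peak there. The following lists are read beside these shares and carry no test. List shares are over all genes of a list, so that only the 5.48% has a like denominator. In 5 lists of signalling and neural genes the intervals lay above both shares. A site was found at 30 of 96 neurotransmitter receptor genes (31.3%; 22.9 to 41.1), 13 of 50 Wnt ligands, receptors and modulators (26.0%; 15.9 to 39.6), 33 of 137 potassium, sodium and calcium channel genes (24.1%; 17.7 to 31.9), 12 of 50 axon guidance genes (24.0%; 14.3 to 37.4) and 13 of 57 genes of the BMP and TGF-beta family (22.8%; 13.8 to 35.2). Homeobox and Pax genes outside the Hox clusters had 18 of 145 (12.4%; 8.00 to 18.8), with Alx1 entered under 2 identifiers, and solute carriers 39 of 355 (11.0%; 8.14 to 14.7), with intervals above the share of all genes. Of these lists, 97 and 235 genes had an EA-HFSC H3K4me3 peak at the start. The intervals of Sox genes (21.1%; 8.51 to 43.3), Eph receptors and ephrins (17.4%; 6.98 to 37.1), metalloproteases (15.0%; 8.79 to 24.4), integrins and laminins (14.0%; 6.56 to 27.3), collagens (13.6%; 6.40 to 26.7) and cadherins and protocadherins (13.6%; 7.03 to 24.5) also lay above the share of all genes. So did those of Notch genes (22.2%; 6.32 to 54.7) and at the margin FGF genes (13.8%; 5.50 to 30.6). The intervals of lineage basic helix-loop-helix (12.2%; 5.32 to 25.5), hedgehog (1 of 10 genes; 1.79 to 40.4%) and forkhead genes (9.30%; 3.68 to 21.6) included the share of all genes, as did those of the T-box, GATA and CDK inhibitor lists.

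The ribosomal protein list, which takes all genes with symbols that begin with Rps or Rpl, was at the other end. No site was found at its 144 genes, which allows a share of up to 2.60% by the interval and is below the share of all genes. None was found at 22 genes of replication and the cell cycle (up to 14.9%) or at 40 Hox genes (up to 8.76%), and these intervals include the 5.48% of all genes. Of the 3 lists, 90, 22 and 29 genes had an EA-HFSC H3K4me3 peak at the start. Of 371 zinc finger genes of the Zfp series 11 had a site (2.97%; 1.66 to 5.23), which is below the share of all genes, and of 51 keratin genes 1, Krt8 (1.96%; 0.347 to 10.3). The width limits leave out genes under wide H3K27me3 domains.

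**Figure D5:**
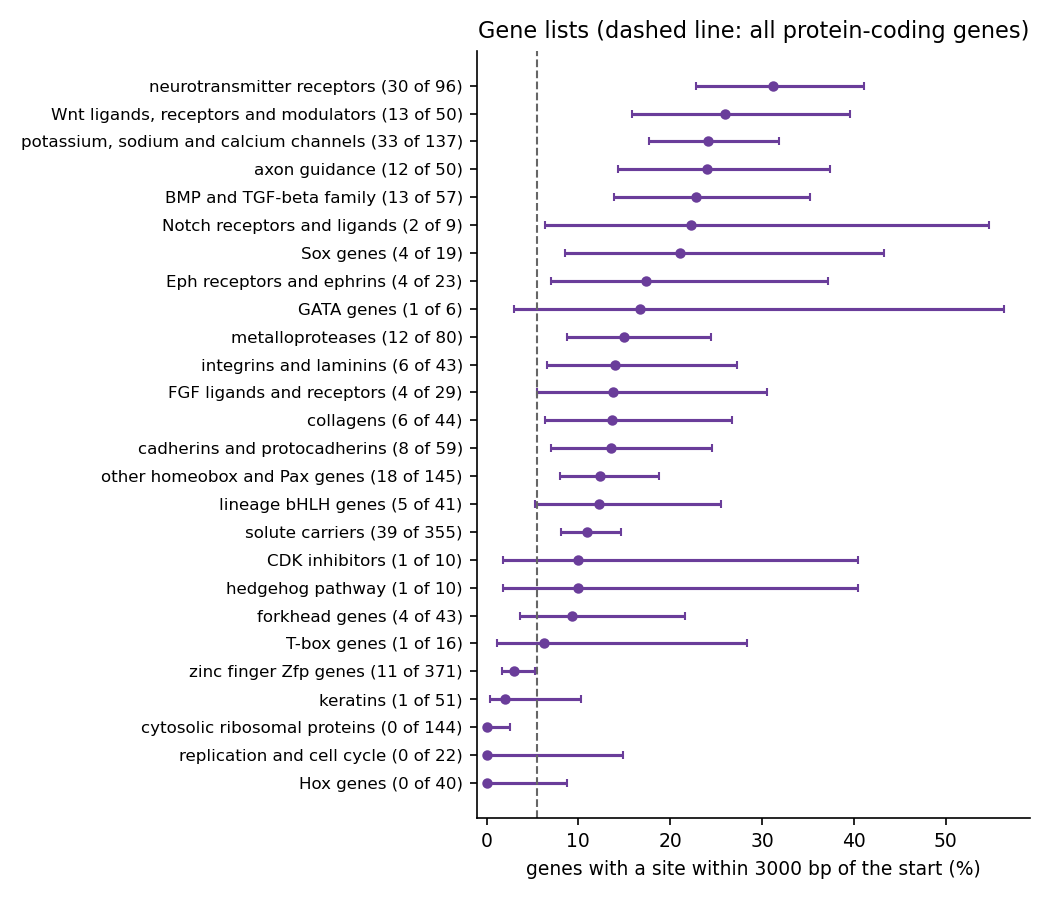
Share of the genes of each list with a site within 3000 bp of the start, in percent, with 95% Wilson intervals, beside the 5.48% of all protein-coding genes (dashed line). Neurotransmitter receptors (31.3%) and Wnt genes (26.0%) stand highest, and the Hox, replication and ribosomal protein lists are at 0.

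The Wnt pathway directs growth of the hair follicle, and 11 of the 15 sites at its genes had H3K4me3 in LC-HFSCs. The sites belonged to 13 genes, and 11 of them had H3K4me3 alone in LC-HFSCs, 2 H3K27me3 alone (both at Sfrp2, a Wnt inhibitor), 2 neither (Wnt2 and Wnt10b) and 0 both. H3K4me3 was thus found in LC-HFSCs at 73.3% of them (48.1 to 89.1), against 45.1% of all sites. This interval includes the 50.0% of sites near a start, the closer background for sites assigned by a gene start. H3K27me3 was found at 13.3% (3.74 to 37.9), an interval that includes the 23.1% of all sites. Among receptors and modulators, Fzd10 had EA-HFSC scores of 1311 for H3K4me3 and 557.8 for H3K27me3, and H3K4me3 alone elsewhere, with scores of 75.7 in LC-HFSCs and 3100 in each CD34- population. Rspo3, an agonist of Wnt signalling, had 841.3 and 511.1 in EA-HFSCs, H3K4me3 alone in LC-HFSCs (214.2) and non-LC-HFSCs (2189), and both marks in non-EA-HFSCs (2300 and 319.4). Wif1, an inhibitor, had both marks in both CD34- populations, with H3K27me3 scores of 792.5 and 464.4. The ligands Wnt3a and Wnt7a had EA-HFSC scores of 384.3 and 390.1 for H3K4me3 and of 509.6 and 569.6 for H3K27me3. Their courses parted in the CD34- populations, where Wnt3a had H3K4me3 alone (3100 and 1609) and Wnt7a both marks, with H3K27me3 scores of 342.9 and 332.3. Fzd10, Rspo3, Wnt3a and Wnt7a were thus bivalent by the lists in EA-HFSCs and free of an H3K27me3 peak in LC-HFSCs.

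Of 13 sites at genes of the BMP and TGF-beta family, which restrains or supports follicle growth depending on the member, 6 had H3K4me3 alone in LC-HFSCs, 2 H3K27me3 alone, 4 neither and 1, Bmper, both. H3K4me3 was thus found at 53.9% (29.1 to 76.8) and H3K27me3 at 23.1% (8.18 to 50.3), near the 45.1% and 23.1% of all sites. Bmpr1b, a BMP receptor, scored 558.3 for H3K4me3 and 365.9 for H3K27me3 in EA-HFSCs and had neither mark in LC-HFSCs. It had both marks in non-EA-HFSCs (1544 and 151.7) and H3K4me3 alone in non-LC-HFSCs (548.5). Chrdl2, a secreted BMP antagonist, had H3K27me3 alone in LC-HFSCs (63.3), and Gdf11, a ligand, H3K4me3 alone (66.7). At the 4 sites of FGF ligands, H3K27me3 was found in LC-HFSCs at 3 (30.1 to 95.4%, above the 23.1% of all sites) and H3K4me3 at 0 (up to 49.0%, which includes the 45.1% of all sites). Their median EA-HFSC H3K27me3 score was 1369, against 264.4 over all sites. The first interval includes the 42.9% found again among H3K27me3 peaks at the sites scoring 300 or more. Fgf15, Fgf12 and Fgf8 had H3K27me3 alone there, with scores of 106.4, 69.5 and 151.7, and Fgf3 neither. Of the Notch ligands, Dll4 had both marks in all 4 populations, while Dll3 had neither in LC-HFSCs at a weak EA-HFSC site with an H3K4me3 score of 52.0. Hhip, which binds hedgehog ligands, had both marks in all 4 populations, with an EA-HFSC H3K27me3 score of 79.8.

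Among transcription factor genes, the homeobox and Pax genes outside the Hox clusters had high H3K27me3 scores. Their 21 sites had a median EA-HFSC H3K27me3 score of 1491, against 264.4 over all sites, 128.4 at 4 Sox sites and 202.2 at 5 lineage basic helix-loop-helix sites, and a median H3K4me3 score of 325.3, against 290.0. In LC-HFSCs, 10 of the 21 had H3K27me3 (47.6%; 28.3 to 67.6) and 5 had H3K4me3 (23.8%; 10.6 to 45.1), against 23.1% and 45.1% of all sites. The first interval includes the 42.9% found again among H3K27me3 peaks at the sites scoring 300 or more. The second just reaches the share of all sites. Six2, a factor of kidney progenitors, scored 703.8 for H3K4me3 and 3100 for H3K27me3 in EA-HFSCs, with H3K27me3 alone in LC-HFSCs (55.4) and both marks in both CD34- populations (171.4 and 3202, then 106.5 and 1203). Pou4f1, a factor of sensory neurons, likewise scored 385.1 and 3100 in EA-HFSCs with H3K27me3 alone in LC-HFSCs (252.6). Gsc had both marks in all 4 populations and Phox2a had H3K4me3 alone in LC-HFSCs. The 4 forkhead sites all had H3K4me3 in LC-HFSCs, and Foxf1a and Foxi3 had H3K27me3 as well. Ascl2, a basic helix-loop-helix factor, scored 1473 for H3K4me3 and 202.2 for H3K27me3 in EA-HFSCs and had H3K4me3 alone in LC-HFSCs (357.6). Neurod1, of the neuronal lineage, had the opposite balance in EA-HFSCs (256.4 and 2554) and neither mark in LC-HFSCs. Among Sox genes, Sox18 of endothelium had both marks in all 4 populations, Sox5 and Sox8 had H3K4me3 alone in LC-HFSCs and Sox30 neither. Tbx21 had both marks in all 4 populations, and Gata5 neither in LC-HFSCs.

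At receptor and channel genes of nerve and muscle, the intervals of the LC-HFSC shares of each mark included those of all sites, of which 41.8% had neither mark and 35.0% H3K4me3 alone. H3K4me3 was found at 32.3% of the receptor sites (18.6 to 49.9) and 47.2% of the channel sites (32.0 to 63.0), and H3K27me3 at 19.4% (9.19 to 36.3) and 22.2% (11.7 to 38.1). Of 31 sites at neurotransmitter receptor genes, 17 had neither mark in LC-HFSCs, 8 H3K4me3 alone, 4 H3K27me3 alone and 2 both. Grm8, a glutamate receptor, scored 1951 for H3K4me3 and 386.6 for H3K27me3 in EA-HFSCs, had H3K4me3 alone in LC-HFSCs (276.3), and had both marks in non-EA-HFSCs (659.7 and 1455) and non-LC-HFSCs (308.7 and 963.5). Chrm2, an acetylcholine receptor, scored 344.6 and 673.9 in EA-HFSCs and had neither mark in LC-HFSCs. Of 36 sites at channel genes, 15 had neither, 13 H3K4me3 alone, 4 H3K27me3 alone and 4 both, and Kcna1, a potassium channel, was among the last, with LC-HFSC scores of 91.9 and 105.2. Of 12 axon guidance sites 5 had H3K4me3 alone, and Slit2, a ligand that repels axons, had both marks in all 4 populations, with an EA-HFSC H3K27me3 score of 1920. The Eph receptors Epha7, Ephb2 and Epha3 had H3K4me3 alone in LC-HFSCs and Epha5 H3K27me3 alone.

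Genes of adhesion and matrix completed the lists. Their lists are small, and the intervals of their LC-HFSC H3K4me3 shares include the 45.1% of all sites, from 31.3 to 83.2% for the 10 cadherin and protocadherin sites to 25.4 to 74.6% for the 12 metalloprotease sites. Of 10 cadherin and protocadherin sites 3 had both marks in LC-HFSCs, at Pcdh10, Pcdh17 and Cdh11, a cadherin of mesenchyme. Cdh11 scored 1870 for H3K4me3 and 867.1 for H3K27me3 in EA-HFSCs and had H3K27me3 alone in non-LC-HFSCs (1341). Of 6 collagen sites 4 had H3K4me3 alone in LC-HFSCs, Col25a1 with a score of 271.1 among them. Integrin and laminin genes had 4 of 6 sites with H3K4me3 alone, at Itga7, Itgb3, Lama1 and Lamb1. Metalloprotease genes had 6 of 12 with H3K4me3 alone and 6 with neither. At Krt8, a keratin of simple epithelia, both sites had H3K27me3 alone in every other population, and 1 H3K27me3 peak spanned both in each of these, of 8514 bp in LC-HFSCs, 26666 bp in non-EA-HFSCs and 10243 bp in non-LC-HFSCs. Cdkn1c, an inhibitor of the cell cycle, was the only one of 10 CDK inhibitor genes with a site, at scores of 152.3 and 53.0, and had neither mark in LC-HFSCs.

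The marker genes of other skin cells with a site did not share 1 course. Kdr, the VEGF receptor of endothelium, scored 726.8 for H3K4me3 and 1228 for H3K27me3 in EA-HFSCs and had both marks in all 4 populations, with 94.5 and 159.2 in LC-HFSCs. Kit, the receptor of melanocytes, scored 216.3 and 397.0 in EA-HFSCs, had neither mark in LC-HFSCs, both in non-EA-HFSCs (55.3 and 574.1) and H3K27me3 alone in non-LC-HFSCs (141.3). Lor scored 1201 for H3K4me3 but 44.5 for H3K27me3 in EA-HFSCs, close to the lower limit, and had H3K4me3 alone in the other 3 populations.

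At the 523 sites away from annotated gene starts, H3K4me3 was found less often in LC-HFSCs than at the sites near a start. H3K4me3 was found in LC-HFSCs at 34.0%, H3K27me3 at 20.8% and both at 8.60% of them, against 50.0%, 24.1% and 10.7% of the 1181 sites near a start. This held for the other narrow H3K4me3 peaks by a wider margin, with H3K4me3 in LC-HFSCs at 39.1% away from starts and 90.3% near them. Of these 523 sites, 23.5% were within 3000 bp of another transcript start of a protein-coding gene, 13.6% (71 sites) of a start of another gene type only, and 62.9% (329 sites; 58.7 to 66.9) of no annotated start. In non-EA-HFSCs, 193 of these 329 had both marks, near the share of all sites away from starts (319 of 523, 61.0%). The highest-ranked site away from gene starts, chosen after its values were seen, lay at chr13:3356722-3361329, between genes and 175992 bp from the start of Gdi2. It had both marks in all 4 populations, with H3K4me3 scores of 2185, 544.6, 905.4 and 1290 and H3K27me3 scores of 1223, 61.9, 1315 and 865.0 in the order used for Pcdh10 above. Another, at chr7:77503131-77507742, lay 3879 bp from the annotated start of Nr2f2, a nuclear receptor gene, and within 3000 bp of another of its transcript starts, and also had both marks in all 4 populations.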

How the data were processed

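ChIP-seq of H3K4me3, H3K27me3 and H3K9me3 in the 4 populations gave the 12 deposited peak lists of this series. 16 samples are labelled, and the 4 IgG samples served as controls. The authors trimmed reads (Trimmomatic 0.22 per the labels), aligned them to mm9 with Bowtie2, pooled replicate experiments and called peaks with MACS against IgG of the same population. The score the authors deposited with each peak is 10 times the negative log10 of its p-value. Per the study's methods, detection of the repressive marks was not saturated.

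A site kept its identity when followed, and a mark was present when a peak of the other list shared at least 1 bp with the H3K4me3 peak of the site. Overlaps (Python 3.11.15, numpy 2.4.6) and intervals (scipy 1.17.1) were tested on simulated peaks and against bedtools 2.31.1. Sequence was read with pyfaidx 0.9.0.4 from NCBIM37, which is mm9, and genes are the 22367 protein-coding genes of GENCODE vM1 on placed chromosomes. The 3 sites on unplaced sequence have no sequence or gene. The members and gene lists were chosen with earlier results of these data known. Sites named are, for each state in LC-HFSCs and for both marks in all 4 populations, the 5 near a start with the best value of the worse of their ranks by H3K4me3 and H3K27me3 score. For each gene list all sites up to 5 were eligible, otherwise the 5 best-ranked. Kit, Kdr, Lor, the second Krt8 site, Sfrp2, Wnt2, Wnt10b, Alx1 and the sites away from starts were named outside this rule, after their values were seen, and so were Plag1, Chchd7, Fhod1, Slc9a5, Gm10419, Mettl9, Nptx2, Slc26a4 and Foxp2 as peaks next to a width limit by a rule of their own. Files were left unfiltered in the values reported. Alternatives were score limits of 50 and 100, a cover of 50% of the site, the 19 autosomes, merging of peaks under 1000 bp apart, other width limits, equal list lengths, the shared stretch, a distance of 1000 bp to a start, and, chosen after seeing the data, followed peaks within 1000 bp.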

Additional observations from a re-analysis of the deposited data

How the results depend on the processing

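There is 1 list per population and mark, so no replicate could be left out and no paired fit exists. Over 11 settings, 64 alternative values were computed, of which 41 stayed within the 95% interval of the reported share (or within 1.5 times the number of sites) and 23 moved. In all 10 settings that follow the marks, the share with both marks was highest in non-EA-HFSCs, then non-LC-HFSCs, then LC-HFSCs. Dropping peaks that score under 100 left 1071 sites. H3K4me3 was then present in LC-HFSCs at 28.2%, H3K27me3 at 7.94% and both at 1.49%, with both at 62.0% in non-EA-HFSCs and 33.2% in non-LC-HFSCs and a start near 75.1%. Dropping those under 50 gave 19.1% for H3K27me3 and 8.66% for both marks in LC-HFSCs. When a followed peak had to cover at least 50% of the site, H3K27me3 in LC-HFSCs was 15.6%, and both marks were at 5.40% in LC-HFSCs, 57.5% in non-EA-HFSCs and 22.7% in non-LC-HFSCs. Merging peaks under 1000 bp apart gave 18.5% and width limits of 4000 and 8000 bp 20.9% for H3K27me3 in LC-HFSCs. With equal list lengths, both marks were at 19.7% in non-EA-HFSCs and 12.9% in non-LC-HFSCs. Over the stretch shared by the EA-HFSC peaks, H3K4me3 in LC-HFSCs was 42.3%, and both marks were at 66.2% in non-EA-HFSCs and 41.0% in non-LC-HFSCs. A distance of 1000 bp put 65.9% near a start. Counting followed peaks within 1000 bp, a setting chosen after seeing the data, gave 25.4% for H3K27me3 in LC-HFSCs and 47.5% for both marks in non-LC-HFSCs. These settings use fewer or more peaks by their construction, and no other cause was tested. Absence of a listed peak is not absence of the mark, since each list holds only peaks above its score limit and the repressive marks were not saturated.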
